A study of Drosophila melanogaster with 3 samples.

Results

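The chemosensory receptor genes of *Drosophila melanogaster* are the odorant receptors (Or), the gustatory receptors (Gr) and the ionotropic receptors (Ir). They were taken as the protein-coding genes of Ensembl release 115 whose symbol begins with Or, Gr or Ir followed by a digit. This gave 179 of 13968 protein-coding genes, of which 59 were Or, 60 were Gr and 60 were Ir genes. Orco, the co-receptor that most odorant receptors need, has a symbol of another form and was counted with the accessory genes. The study mapped where on chromatin net was found, a basic helix-loop-helix (bHLH) protein known from wing vein patterning, by chromatin immunoprecipitation with sequencing (ChIP-seq). Its 3 libraries, numbered 1, 3 and 4 in the labels, were biological replicates of 1 group. Each came from whole prepupae, which are animals at the start of metamorphosis, males and females pooled, of a transgenic line in which green fluorescent protein (GFP) was joined to the C-terminal end of net, and chromatin was precipitated with an antibody against GFP. All animals carried the transgene, their age within the stage was unknown, and no library of control flies was analysed here, so a signal of net cannot be told apart from one that any GFP precipitation would give.

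Odorant receptors act in pairs with Orco in the olfactory neurons of antenna and palp. Gustatory receptors detect sugars, bitter compounds and, in the antenna, carbon dioxide, while the Ir proteins are relatives of ionotropic glutamate receptors that pair with the co-receptors Ir8a, Ir25a, Ir76b or Ir93a. Each receptor gene is typically active in a small class of sensory neurons, and at the prepupal stage the larval sense organs are being lost while those of the adult form. Such neurons are few among the cells of a whole animal. Fewer cells with a bound site and weaker binding in each cell cannot be told apart in these data.

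No receptor gene had a peak of the stricter list at its promoter. That list was the authors' selection by the irreproducible discovery rate (IDR), a procedure that ranks peaks by how alike replicates order them, and it held 7571 peaks on genome build dm6. These were the very peaks of highest signal in the pooled relaxed list, 7571 of 7571, so a place in the IDR list is in effect a threshold on pooled signal and does not by itself show that the libraries ranked a peak alike. A summit, the position of highest signal in a peak, lay within 500 bp of a transcription start site (TSS) for 0 of the 179 receptor genes (95% interval 0 to 2.04%). The same was true of 18.2% of all protein-coding genes. The receptor genes are short, with a median span of 1691 bp against 2164.5 bp for all protein-coding genes. In the other genes of like span, weighted by the receptor genes in each of 10 bins of span, the share was 15.3%, which corresponds to 27.4 genes of 179. The counts were 0 of 59 for Or, 0 of 60 for Gr and 0 of 60 for Ir, beside 14.6%, 14.4% and 16.8% for genes of like span.

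Nor did an IDR peak reach into any receptor gene. A summit fell inside 0 of the 179 genes, beside 6.80% of genes of like span and 15.0% of all protein-coding genes. No base of any IDR peak overlapped a receptor gene. With the window widened to the gene and 2 kb on either side, 18 receptor genes (10.1%, 95% interval 6.07 to 15.4%) had an IDR summit, against 29.3% of genes of like span and 34.4% of all protein-coding genes. Those 18 compare with 52.4 genes at the share of like span. By family they were 4 Or genes (6.78%, 1.88 to 16.5%), 6 Gr genes (10%, 3.76 to 20.5%) and 8 Ir genes (13.3%, 5.94 to 24.6%). The intervals of the 3 families overlap widely, and each upper bound lay below the family's share for genes of like span, which was 27.6% for Or, 28.4% for Gr and 31.8% for Ir.

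**Figure D1:**
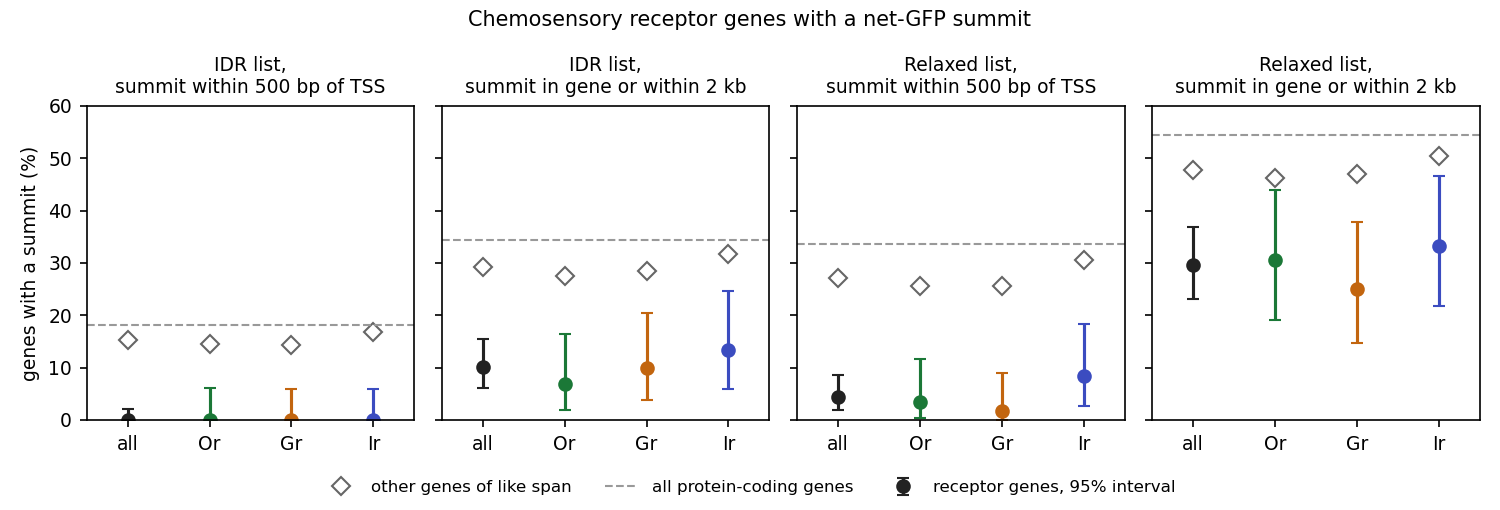
Share of receptor genes, in percent, with a summit of the IDR list or of the pooled relaxed list within 500 bp of a TSS or within the gene or 2 kb. Filled points with exact 95% intervals are the receptor genes, open diamonds are the other genes of like span and dashed lines all protein-coding genes; in each of the 4 panels the point for all 179 lies below its diamond, from 0% against 15.3% to 29.6% against 47.9%.

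The same held in the libraries taken one by one. Each library's own relaxed list held 30000 peaks, and its 7571 peaks of highest signal were taken so as to equal the length of the IDR list. At this length 0 receptor genes had a summit at most 500 bp from a TSS in replicate 1, in replicate 3 and in replicate 4, beside a mean of 16.5% ± 1.41 (SD, n = 3 libraries) of genes of like span. Within the gene or 2 kb, 19, 18 and 15 receptor genes had such a summit in replicates 1, 3 and 4, which is 9.68% ± 1.16 (SD, n = 3) beside 31.0% ± 1.93 of genes of like span. The spread between libraries was smaller than the gap to genes of like span, but it measures repeat calls on the same genes. It does not measure the uncertainty of a difference between sets of genes. In all 3 libraries 11 receptor genes were found, namely Or45b, Or85f, Gr5a, Gr89a, Gr97a, Ir7g, Ir67b, Ir68b, Ir85a, Ir94g and Ir94h. A further 7 were found in 2 libraries and 5 in 1, and 156 in none. The like counts were not made for other genes.

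The 18 receptor genes with an IDR summit nearby shared 19 summits. Or85f and Gr89a had 2 each, and 1 summit lay within 2 kb of both Ir94g and Ir94h. Every summit was at least 562 bp from the TSS of its receptor gene, with a median distance of 2099 bp and a largest of 4227 bp at Ir7g. For 13 of the 19 the nearest TSS belonged to a gene that is no chemosensory receptor, and 9 of these lay within 500 bp of it. For the remaining 6 the nearest TSS was that of a receptor gene (Or45b, Gr59d, Gr89a, Ir67b, Ir94e and Ir94h). Since no IDR summit lay within 500 bp of a receptor TSS, a summit that close to a TSS could only be at another gene's. The like split was not counted for summits near genes of like span. By annotation 15 summits were intergenic, 3 were in an intron and 1 in a non-coding exon. Signal, the authors' value per peak that serves here only to rank peaks within a list, ran from 140 to 709 at the 19 summits with a median of 302, against a median of 225 over the IDR list.

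**Figure D2:**
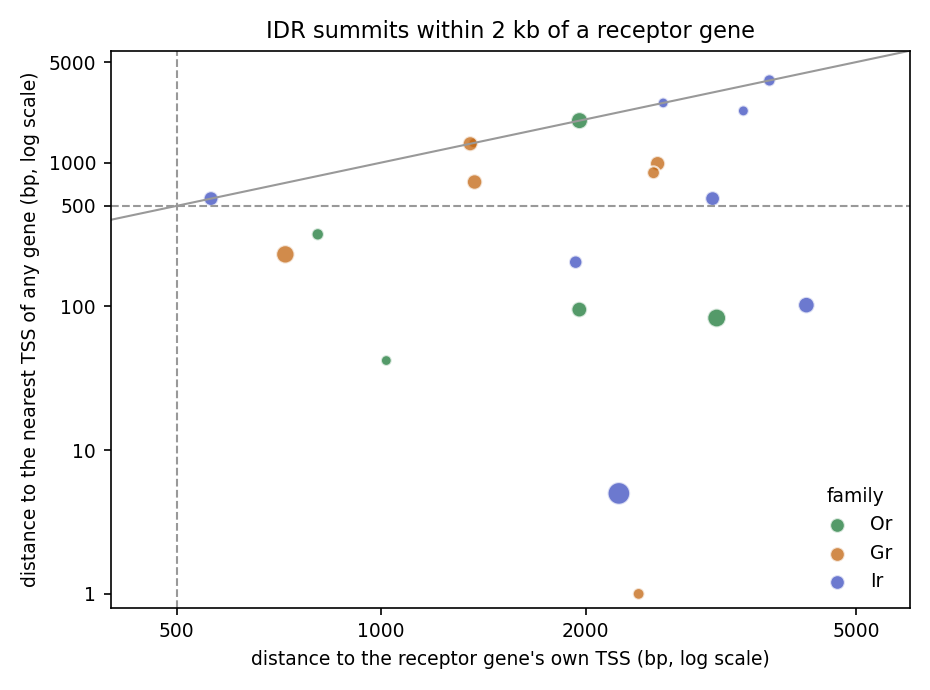
Distance of each IDR summit to the TSS of its receptor gene (horizontal, bp, log scale) and to the nearest TSS of any gene (vertical, bp, log scale), 1 point for each pair of receptor gene and summit, larger for higher signal, with 500 bp as dashed lines and equal distances as a solid line. All points lie to the right of 500 bp, 9 lie below 500 bp on the vertical axis, and the 6 on the solid line are nearest to the receptor gene itself.

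The sequences around these summits are shown for the 4 that are nearest to a receptor gene and can be printed here, and then for 4 that lie at the promoter of a neighbour. The latter are examples from 9 such summits, and whether E-boxes differ between these groups was not tested. Each window holds 101 bases centred on the summit, on the plus strand of build dm6, and capitals mark every E-box, the sequence CANNTG that bHLH proteins recognise and that reads the same pattern on both strands.
Ir94g and Ir94h, chr3R:23486889-23486989: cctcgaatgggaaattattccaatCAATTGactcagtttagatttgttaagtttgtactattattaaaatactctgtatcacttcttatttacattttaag
Gr89a, chr3R:16497556-16497656: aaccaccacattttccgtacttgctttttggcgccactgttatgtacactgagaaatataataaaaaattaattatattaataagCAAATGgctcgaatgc
Ir67b, chr3L:10428204-10428304: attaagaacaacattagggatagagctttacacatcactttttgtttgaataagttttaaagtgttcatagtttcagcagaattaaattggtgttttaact
Ir94e, chr3R:23408061-23408161: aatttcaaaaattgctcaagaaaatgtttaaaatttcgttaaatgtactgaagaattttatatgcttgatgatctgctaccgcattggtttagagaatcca
Ir85a, at Pif1A and Pif1B, chr3R:8792700-8792800: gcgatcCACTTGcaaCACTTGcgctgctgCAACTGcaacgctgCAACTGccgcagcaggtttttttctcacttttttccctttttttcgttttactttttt
Gr32a, at Idua, chr2L:11113241-11113341: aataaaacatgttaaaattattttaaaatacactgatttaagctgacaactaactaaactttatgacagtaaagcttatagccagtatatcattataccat
Or85f, at RpL34b, chr3R:9401259-9401359: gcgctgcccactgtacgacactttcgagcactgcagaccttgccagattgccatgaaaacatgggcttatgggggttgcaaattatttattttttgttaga
Ir7g, at Acat1, chrX:7888837-7888937: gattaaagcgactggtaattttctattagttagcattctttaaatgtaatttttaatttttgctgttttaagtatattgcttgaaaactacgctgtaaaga
An E-box was present in 9 of the 19 windows (47.4%), against 36.7% of all 7571 IDR windows. Of the sequences shown, the window near Ir85a held 4 E-boxes, those of Ir94g with Ir94h and of Gr89a held 1 each, and the other 5 held none.

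Among the summits nearest to a receptor gene, the one between Ir94g and Ir94h was closest to a receptor TSS. It lay 562 bp upstream of Ir94h (FBgn0039080) and 3076 bp downstream of the TSS of Ir94g (FBgn0039079), with a pooled signal of 302 and ranks of 2167, 2703 and 3814 in replicates 1, 3 and 4. All 3 ranks fell among the 7571 highest. The summit 1353 bp downstream of the TSS of Gr89a (FBgn0038440), a bitter receptor expressed in most bitter-sensing neurons, had a signal of 314 and ranked 3649, 1895 and 2036. A second summit at Gr89a, 2553 bp downstream of its TSS and 984 bp from that of the cadherin gene Cad89D, had a signal of 319 and ranked 2113, 3493 and 2021. Gr89a was thus flanked at its 3′ side by 2 summits of nearly equal signal, each found in all libraries.

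Of the other 4, Or45b (FBgn0033422) had the strongest, 1959 bp upstream, with a signal of 399 and ranks of 1329, 1759 and 1790. Ir67b (FBgn0036083) had a summit 3729 bp downstream of its TSS, past the gene's end, with a signal of 206 and ranks of 5130, 5054 and 4047. The libraries ranked these alike. They differed more at Ir94e (FBgn0259194), whose summit 2602 bp downstream had a signal of 158 and ranks of 6982, 11435 and 5266. At Gr59d (FBgn0041236) the summit 1368 bp upstream had a signal of 140, the lowest of the 19, and ranked 6928, 6411 and 10881. Replicate 3 at Ir94e and replicate 4 at Gr59d were outside the 7571 highest of their lists.

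The strongest summit near a receptor gene lay at another gene's promoter. At Ir68b (FBgn0036250) it had a signal of 709 and ranks of 556, 285 and 994 in replicates 1, 3 and 4, was 2239 bp downstream of the receptor's TSS, and was 5 bp from the TSS of yps, which encodes a Y-box RNA-binding protein. The 2 summits beyond the 3′ end of Or85f (FBgn0037685) were 83 bp from the TSS of the ribosomal protein gene RpL34b, with a signal of 487 and ranks of 1235, 744 and 1588, and 95 bp from that of CG34117, with a signal of 343 and ranks of 2641, 1703 and 2163. These were high in every library. The summit 723 bp upstream of Gr32a (FBgn0041246), a broadly expressed bitter receptor that also takes part in pheromone sensing, was 230 bp from the TSS of Idua and had a signal of 468. It ranked 1023 in replicate 1 and 1485 in replicate 3, and had no summit within 100 bp in replicate 4. It was the only 1 of the 19 not matched in all 3 libraries. Of all 7571 IDR peaks, 6505 were matched in all 3.

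The other 5 summits at neighbours' promoters had signals from 161 to 380. Ir7g (FBgn0029968) had one of 380 at 102 bp from Acat1, ranked 1910, 1828 and 1902, the narrowest spread of the set. Ir85a (FBgn0037630) had one of 252 at 203 bp from Pif1A and Pif1B, ranked 3641, 4418 and 3286. Or88a (FBgn0038203), a receptor of antennal neurons that respond to the odour of other flies, had one of 210 at 317 bp from CG12402, ranked 3098, 4454 and 8355. Ranks were wider apart at the next pair. The summit near Gr94a (FBgn0041225), 1 bp from a TSS of p53, had a signal of 191 and ranks of 5857, 2943 and 14176. The summit near Or9a (FBgn0030204), 42 bp from Neb-cGP, had a signal of 161 and ranks of 11679, 4634 and 9502. Replicate 3 ranked both best.

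For 4 summits the nearest TSS was that of a neighbour more than 500 bp away. Gr5a (FBgn0003747), a sugar receptor best known for the response to trehalose, had a summit 1373 bp upstream in an intron of Tre1, 733 bp from a TSS of that gene, with a signal of 330 and ranks of 2930, 2458 and 1748. Gr97a (FBgn0041224) had one in an intron of Tsp97E with a signal of 226 and ranks of 3365, 3903 and 4904. Ir87a (FBgn0038153) had one 2290 bp from the actin gene Act87E with a signal of 164 and ranks of 5424, 7660 and 5562, and the summit near Cad89D is given above. All 4 were found in every library.

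**Figure D3:**
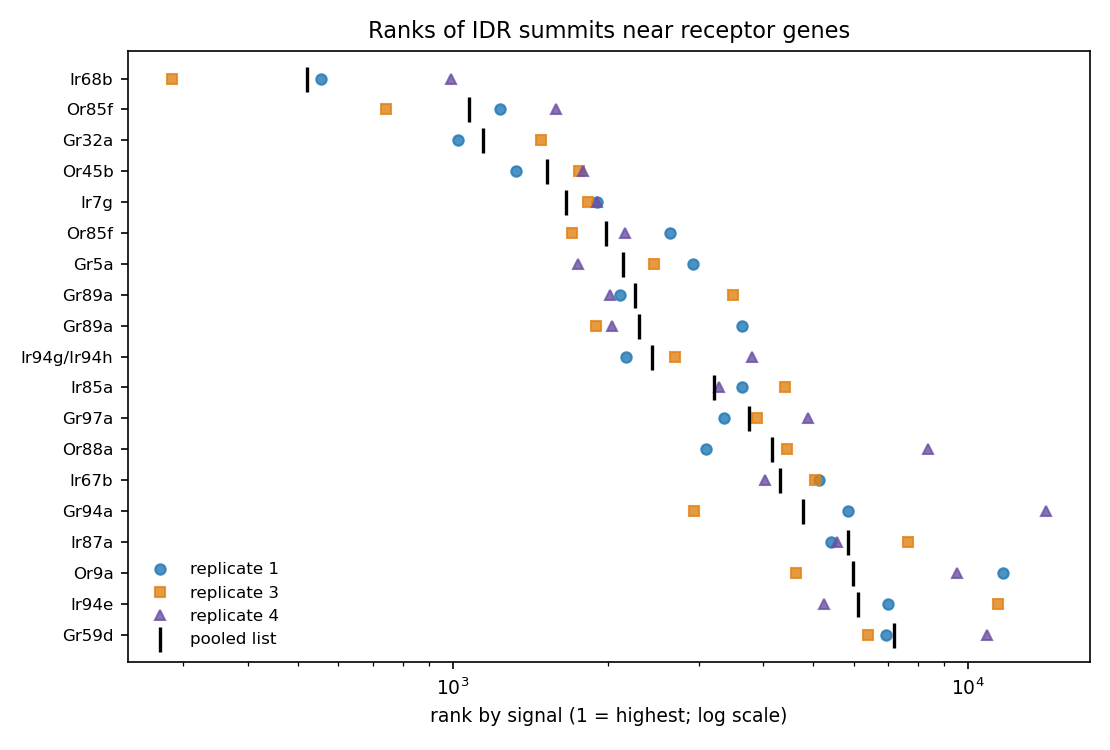
Rank by signal (log scale, 1 is the highest) of the 19 IDR summits within 2 kb of a receptor gene, in the pooled list (black bar) and in the list of each replicate (coloured symbols), 1 line for each summit, ordered by pooled rank. Ir68b leads in every list, and the lines of Gr94a, from 2943 to 14176, and of Ir68b, from 285 to 994, are the widest on this scale; Gr32a has no symbol for replicate 4.

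The pooled relaxed list, made as input for the IDR procedure and described by its depositors as holding peaks and background, reached down to a signal of 34.1 with 30000 peaks. In it 8 receptor genes (4.47%, 1.95 to 8.62%) had a TSS with a summit within 500 bp, against 27.2% of genes of like span and 33.6% of all protein-coding genes. They were 2 Or, 1 Gr and 5 Ir genes, which is 3.39%, 1.67% and 8.33% beside 25.5%, 25.6% and 30.5% of genes of like span. Within the gene or 2 kb the relaxed list gave 53 receptor genes (29.6%, 23.0 to 36.9%), beside 47.9% of genes of like span and 54.4% of all protein-coding genes. The families were close here, with 18 Or (30.5%), 15 Gr (25%) and 20 Ir genes (33.3%). Inside the gene itself there were 6 (3.35%), beside 14.9% and 26.8%, and 126 receptor genes had no summit within 2 kb in either list. The share of receptor genes was lower than in genes of like span by 22.7 points at the TSS and by 18.2 points within 2 kb.

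Each library's whole relaxed list gave like counts. Within 500 bp of a TSS, 9, 8 and 8 receptor genes had a summit in replicates 1, 3 and 4, or 4.66% ± 0.323 (SD, n = 3) beside 30.5% ± 2.48 of genes of like span. With a library left out, the pooled summits matched in both others gave 3, 1 and 1 receptor genes at the TSS without replicates 1, 3 and 4, beside 19.7%, 19.1% and 20.5% of genes of like span. Within the gene or 2 kb the counts were 54, 61 and 52, or 31.1% ± 2.64 beside 52.4% ± 3.11, and 36, 34 and 34 with each library left out in that way. The receptor genes at the TSS were mostly not the same ones from library to library. Of 16 found in any library, 3 were found in all, namely Or67a, Ir67c and Ir94f, while Ir25a, Or65c and Gr77a were found in 2 and 10 in 1 library alone. Within the gene or 2 kb, 43 receptor genes were found in all 3 libraries, 10 in 2, 18 in 1 and 108 in none. Agreement between libraries was not counted for other genes, so these counts do not show whether it is particular to receptor genes.

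The 8 receptor genes with a relaxed summit at the TSS had weak ones, each below the IDR list. Ir94f (FBgn0051225) had the strongest, 372 bp upstream, with a signal of 99.0, a pooled rank of 10676 and ranks of 9153, 28477 and 12587 in replicates 1, 3 and 4. Or67a (FBgn0036009), expressed in an antennal neuron class, had one 4 bp downstream of its TSS with a signal of 69.8, matched at ranks 15172 and 12060 in replicates 3 and 4 and not within 100 bp in replicate 1. A summit 335 bp downstream, with a signal of 45.8, was matched in replicate 1 alone. Or67a had 3 summits within its gene in all. Gr77a (FBgn0045474) had a signal of 59.3, 222 bp upstream, matched in replicate 3 alone.

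Ir25a (FBgn0031634), the most broadly expressed Ir co-receptor, had a signal of 54.3 at 52 bp downstream of its TSS in the 5′ UTR. It was matched in replicate 1 alone, at rank 28615, near the end of that list. Ir67c (FBgn0052058) had summits of 49.3 and 36.3 at 188 and 400 bp upstream, the first matched in replicate 1 and the other in replicates 3 and 4. Or65c (FBgn0041623) had 43.6 and Ir60a (FBgn0034994) 34.1, each matched in 1 library, and Ir87a had 37.7, matched in none. With a match taken as a summit within 100 bp, 5 of the 8 genes rested on 1 library or none.

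Over all, 103 relaxed summits lay within 2 kb of the 53 genes, of which 38 were matched in 3 libraries, 31 in 2, 31 in 1 and 3 in none. The like split was not made for all peaks of the relaxed list. For 63 of the 103 the nearest TSS was that of a receptor gene and for 40 that of another gene, so the larger part here differs from that of the IDR summits. Gr97a had the most with 6, followed by Gr77a, Ir67b and Or85f with 5 each. Only 9 summits lay inside a receptor gene, the strongest in the 3′ UTR of Ir67b, with a signal of 118 and ranks of 6402, 13676 and 10546. Ir67b was also the only receptor gene with a summit inside the gene among the 7571 highest of a library, and there in replicate 1 alone.

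Grouped by role, no group had more than 2 receptor genes with an IDR summit nearby. Of the 9 sugar receptors 1, Gr5a, had a summit within 2 kb in either list, beside 31.7% of genes of like span in the IDR list and 49.5% in the relaxed list, and Gr43a, Gr61a and the 6 Gr64 genes had none. Both subunits of the carbon dioxide receptor, Gr21a and Gr63a, had none in the pooled lists, beside 29.1% and 47.9%. Of 5 broadly expressed bitter receptors, Gr32a and Gr89a had an IDR summit and Gr33a, Gr39a and Gr66a had none in either list. This count of 2 of 5 (40%, 5.27 to 85.3%) was not below genes of like span in the IDR list (33.3%), and the relaxed list gave the same 2 genes beside 52.7%. Gr28b, whose transcripts take part in taste, warmth and light sensing, had none, beside 55.2% and 77.9%. The 4 Ir co-receptors had no IDR summit, beside 41.8% of genes of like span. In the pooled relaxed list 2 of the 4 had one, beside 61.0%, where Ir25a had the summit described and Ir76b had one of signal 57.1, 1633 bp upstream. Ir93a had none there, but had one in the own relaxed lists of replicates 1 and 3. Of 13 Ir genes of the antenna, 0 had an IDR summit, beside 39.9% of genes of like span. In the pooled relaxed list Ir92a alone had summits, with signals of 53.9 and 46.6, beside 59.2% of genes of like span. In the libraries' own relaxed lists Ir92a had a summit within 2 kb in replicate 1 alone, while Ir68a had one in replicates 1, 3 and 4. With groups of 2 to 13 genes the intervals are wide, and 0 of 13 allows a share of up to 24.7%.

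Farther from the TSS the gap to genes of like span narrowed and did not close when both sides were counted together. Counted per kb on both sides of the TSS farthest upstream, receptor genes had 0 IDR summits in the first 500 bp, 0.384 times the density of genes of like span from 500 to 1000 bp, 0.425 times from 1 to 2 kb and 0.664 times from 2 to 5 kb. Beyond that the ratio was 0.657 from 5 to 10 kb and 0.688 from 10 to 20 kb. In the relaxed list the ratio was 0.170 in the first 500 bp, 0.638 from 500 to 1000 bp and between 0.866 and 0.884 in each band from there to 20 kb. The low density was thus sharpest at the promoter in both lists, and from 2 kb on it changed little. Upstream and downstream were not alike. Relaxed summits from -2000 to -1000 bp, upstream, were at 0.207 per kb against 0.179 for genes of like span. From 1000 to 2000 bp downstream they were at 0.0447 against 0.105. To 10 kb, the upstream steps of the relaxed list lay on either side of genes of like span, and each downstream step lay below. In the IDR list only the step from -3000 to -2000 bp was not below, at 0.061 against 0.057. The median distance from a receptor TSS to the nearest IDR summit was 14443 bp, against 6845.5 bp for all protein-coding genes. By family it was 15502 bp for Or, 18241.5 bp for Gr and 11507.5 bp for Ir genes, with the farthest at Ir41a (578893 bp), whose span of 104437 bp is the longest of the set.

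**Figure D4:**
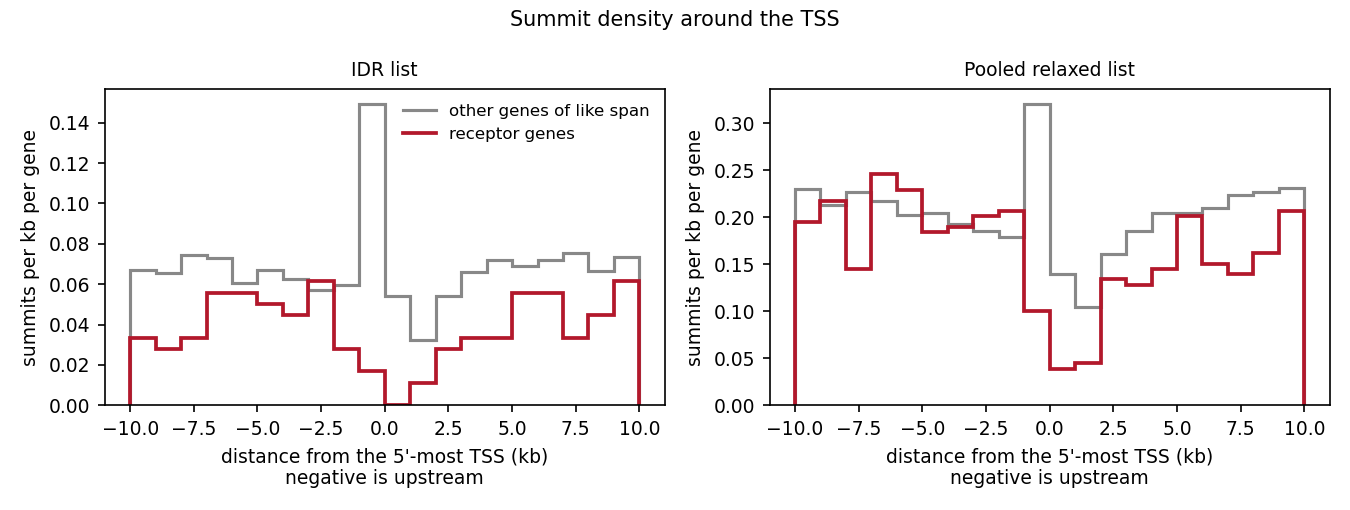
Summits per kb per gene in steps of 1 kb around the TSS farthest upstream (horizontal, kb, negative is upstream), for the 179 receptor genes in red and the other genes of like span in grey, for the IDR list on the left and the pooled relaxed list on the right. Genes of like span peak in the 1 kb before the TSS, at 0.149 per kb in the IDR list, where the receptor genes have 0.0168, and the receptor genes have no such peak in either list.

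The genes next to the receptors were closer to genes of like span than the receptors were, and lay below them by each rule. The nearest protein-coding neighbours that are no receptors were 135 genes, of which 27 (20%) had an IDR summit within 500 bp of a TSS, beside 22.7% of genes of their like span. In the relaxed list it was 51 of 135 (37.8%), beside 41.2%. Within the gene or 2 kb, 46 neighbours (34.1%) had an IDR summit, beside 41.1%, and 76 (56.3%) a relaxed one, beside 61.7%. All protein-coding genes stood at 18.2% and 33.6% at the TSS and at 34.4% and 54.4% within 2 kb. The neighbours were above these shares but for an IDR summit within 2 kb. No interval was taken for the neighbours, and their differences were not tested. Of the 179 receptor genes, 34 had a nearest neighbour with an IDR summit at its TSS, beside 18.2% of all protein-coding genes. In this count a neighbour shared by several receptor genes counts once for each. The median gap between receptor and neighbour was 1148 bp, and 39 receptor genes overlapped theirs.

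Receptor genes lying inside another gene were counted apart. The span of another protein-coding gene held 30 receptor genes whole, and for 5 of them (Or10a, Gr10a, Gr64b, Gr64c and Gr64e) this was another receptor gene. Of these 30, 2 (6.67%) had an IDR summit within 2 kb and 9 (30%) a relaxed one, against 16 (10.7%) and 44 (29.5%) of the 149 others. Of the 25 inside a gene that is no receptor, 2 (8%) and 7 (28.0%) had one. Clustered and lone receptor genes both lay below genes of like span. The 79 receptor genes within 5 kb of another formed 28 clusters, and 6 of them (7.59%) had an IDR summit within 2 kb, beside 28.0% of genes of like span. Of the 100 standing alone it was 12 (12%), beside 30.3%. The arrays Gr22a to Gr22e and Gr64a to Gr64f, with 5 and 6 genes over 10.9 and 10.8 kb, had no summit within 2 kb in either list. Ir7c to Ir7g had the 1 at Ir7g.

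The receptor promoters were examined for base composition and for 5 motifs known from other work, in windows from 250 bases before to 50 after the TSS farthest upstream. Mean GC content was 39.5% ± 5.82 (SD, 179 promoters) for receptor genes and 39.1% ± 7.77 for all 13968. For genes of like span it was 37.9%, so receptor promoters were close to all promoters and somewhat above genes of like span. Among genes of like promoter GC, 19.1% had an IDR summit and 34.6% a relaxed summit within 500 bp of a TSS. The E-box CANNTG, searched on both strands, was in 149 receptor promoters (83.2%), beside 77.2% of genes of like span and 77.2% of all promoters. Its form CATATG, which is counted within it, was in 7.82% of receptor promoters and 7.81% of all. Receptor promoters thus held the letters of the E-box at least as often as other promoters. Of the 2538 genes with an IDR summit at the TSS, 76.6% had an E-box in this window.

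Beside genes of like span, the largest gap was that of TATCGATA, and those of GAGAG and TATAAA were near that of the E-box. The DNA replication-related element TATCGATA, common in promoters of broadly expressed genes, was in 1 of 179 receptor promoters (0.559%). It was in 10.1% of genes of like span, 9.36% of all promoters and 10.3% of promoters with an IDR summit. GAGAG, the letters of the GAGA element, was in 20.1% of receptor promoters, 26.4% of genes of like span, 29.7% of all and 38.3% of those with an IDR summit. TATAAA, the letters of the TATA box, was in 54.2% of receptor promoters, 47.8% of genes of like span and 45.8% of all. Here the families were apart, with 46 of 59 Or promoters (77.97%), 18 of 60 Gr promoters (30%) and 33 of 60 Ir promoters (55.0%). GAGAG was in 25.4%, 21.7% and 13.3% of Or, Gr and Ir promoters, beside 25.6%, 25.3% and 28.2% of genes of like span. Its gap was thus largest in Ir genes and nearly absent in Or genes. All motifs were sought on both strands anywhere in the window, and a match is no sign of use.

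**Figure D5:**
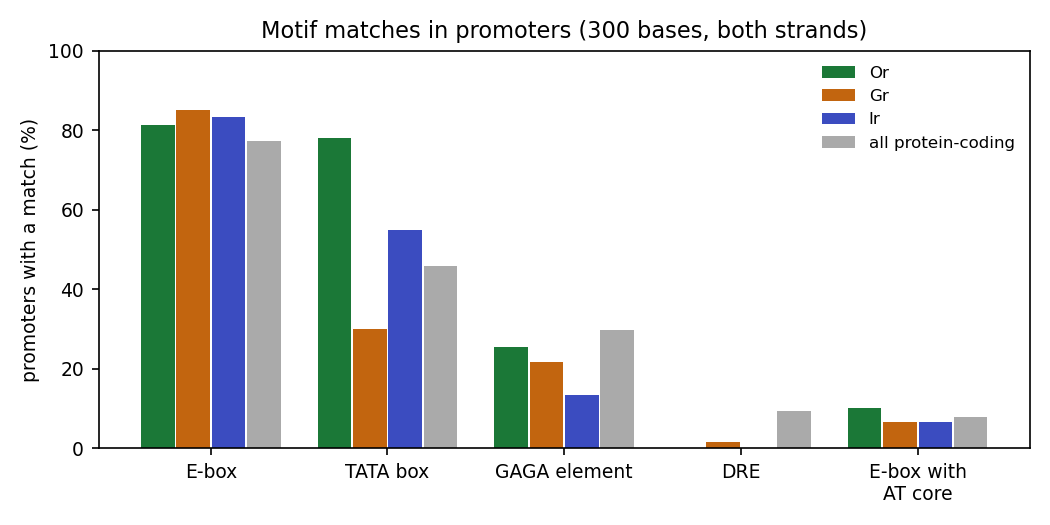
Share of promoters in percent, from 250 bases before to 50 after the TSS, that hold the letters of 5 motifs on either strand, by receptor family and for all 13968 protein-coding genes. The E-box runs from 77.2% of all to 85.0% of Gr promoters, and the TATA box from 30% in Gr to 77.97% in Or promoters. The DNA replication-related element (DRE) is at most 1.67% in the families against 9.36% of all.

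The 250 bases before the TSS are shown for 4 receptor genes, on the strand of the gene in build dm6, since they hold the motif letters whose shares are given above. Capitals mark E-boxes in the promoter of Ir94h, whose upstream region holds an IDR summit farther out, and of Or67a, which has a relaxed summit 4 bp past its TSS.
Ir94h, chr3R:23487251-23487500, plus strand: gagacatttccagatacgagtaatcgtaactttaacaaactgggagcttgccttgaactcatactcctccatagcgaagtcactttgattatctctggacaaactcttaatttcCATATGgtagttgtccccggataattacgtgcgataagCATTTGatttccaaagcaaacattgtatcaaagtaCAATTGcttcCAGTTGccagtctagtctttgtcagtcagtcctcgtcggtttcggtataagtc
Or67a, chr3L:9528817-9529066, plus strand: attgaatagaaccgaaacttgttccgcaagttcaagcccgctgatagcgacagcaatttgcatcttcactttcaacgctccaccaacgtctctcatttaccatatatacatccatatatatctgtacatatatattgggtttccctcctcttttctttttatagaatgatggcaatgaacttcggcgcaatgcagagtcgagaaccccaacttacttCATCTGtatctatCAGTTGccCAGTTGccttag
Capitals mark TATAAA on either strand in the promoters of Or85f and Gr5a.
Or85f, chr3R:9397940-9398189, plus strand: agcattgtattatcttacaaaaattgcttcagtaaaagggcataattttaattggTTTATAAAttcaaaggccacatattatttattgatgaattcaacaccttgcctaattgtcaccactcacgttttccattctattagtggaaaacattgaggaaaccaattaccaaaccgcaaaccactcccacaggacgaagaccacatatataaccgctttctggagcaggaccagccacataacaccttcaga
Gr5a, chrX:5680367-5680616, plus strand: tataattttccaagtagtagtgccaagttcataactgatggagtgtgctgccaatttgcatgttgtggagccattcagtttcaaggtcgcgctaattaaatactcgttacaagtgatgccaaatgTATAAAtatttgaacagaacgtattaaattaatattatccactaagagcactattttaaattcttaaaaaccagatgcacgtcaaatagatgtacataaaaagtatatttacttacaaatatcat
Ir94h held 4 E-boxes and Or67a held 3, of which the last was a few bases from the TSS. Or85f held 2 overlapping TATAAA matches, 1 on each strand, and Gr5a held 1.

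Near-identical sequence copies were rare around the receptor TSSs. In the 1001 bases around each receptor TSS, 177 of 179 receptor genes had no word of 50 bases that occurs elsewhere in the assembled arms. The exceptions were the duplicates Or19a and Or19b, with 76.5% each, for which the count of summits is uncertain. How the authors treated repeated reads is not given in the sources used here.

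Genes that work with the receptors were counted in the same way. Of 63 accessory genes, which are Orco, the odorant-binding proteins, the lipid-binding membrane proteins Snmp1 and Snmp2, several ppk channel genes and a few more, 3 (4.76%) had an IDR summit within 500 bp of a TSS, beside 10.5% of genes of like span. These were Obp83cd, Obp83g and Obp99b, of a family that carries odorants in the fluid around sensory neurons, while Orco had a relaxed summit within 2 kb and no IDR summit. Of 23 genes that regulate the fate of receptor neurons or the choice of receptor, 7 (30.4%) had an IDR summit at a TSS, namely zf30C, ap, pdm3, Xbp1, Dll, sqz and Eip93F, beside 34.1% of genes of like span. These genes are long, with a median span of 20846 bp. Of 13 ionotropic glutamate receptor genes, the relatives of the Ir family, 0 had one at a TSS, beside 27.2% of genes of like span, and Nmdar1 and Nmdar2 had one within 2 kb. Some accessory and regulator genes had an IDR summit at the TSS and no receptor gene did, but by this rule the shares of these lists also lay below genes of like span. Their intervals of 0.993 to 13.3% and 13.2 to 52.9% are wide and hold the shares of genes of like span. In the relaxed list the regulators lay above, with 17 of 23 (73.9%) at a TSS beside 59.6% of genes of like span. The accessory genes, with 7 (11.1%) beside 21.4%, and the glutamate receptors, with 3 (23.1%) beside 49.9%, lay below there too. Whether these lists differ from the receptor genes was not tested.

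By chromosome arm, the receptor genes with an IDR summit nearby were unevenly spread. On 3R they were 10 of 42 (23.8%), beside 35.0% of all protein-coding genes of that arm, and on X 3 of 25 (12%). The other arms had 1 of 31 on 2L (3.23%), 2 of 46 on 2R (4.35%) and 2 of 35 on 3L (5.71%). In the relaxed list 3R had 17 of 42 (40.5%) and 3L 14 of 35 (40.0%), so the lead of 3R was not seen in that list. On every arm the share was below that of all protein-coding genes of the arm in both lists, and whether arms differ was not tested.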

How the data were processed

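ChIP-seq with an antibody against GFP was deposited as peak lists for 3 libraries of whole prepupae that form 1 group. Per the deposited file descriptions, the authors made a relaxed list of peaks and background for each library, 1 for the pooled alignments against a control alignment not used here, and from these a list thresholded by IDR. The aligner and the peak caller, with versions, were not given in the sources used here. Every peak carries a signal value by the authors, used here to rank peaks within a list, and the authors' −log10 q-value, which was not used for any result. The lists give no read counts, so library depth is unknown. Lists on build dm6 were used and those on dm3 were not used here.

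Summits were taken from the deposited summit offsets. Gene models came from Ensembl release 115 without pseudogenes and transposable elements (17947 genes, 13968 protein-coding, 23358 distinct TSSs), and sequence from the Release 6 assembly of RefSeq, which is dm6. A gene counted as having a summit within 500 bp of any of its TSSs, or within the gene or 2 kb of it. A summit of the pooled lists was matched to a library by a summit within 100 bp. Such rules do not say which gene a peak acts on. Genes of like span are the other protein-coding genes, averaged over 10 bins of span with the weights of the receptor genes. Intervals are exact 95% Clopper-Pearson intervals, which cover counting error only and treat genes as independent, although neighbours can share a summit. With 1 group no test between conditions was possible, and no test of the gene list was made. The receptor genes, the other lists and the comparisons were chosen with earlier results of these data known. Named genes were those with an IDR summit within 2 kb by signal, those with a relaxed summit at the TSS by signal, those with the most summits, and the roles as counts. Alternatives were other distances, other parts of the lists, peaks matched in all libraries, each library left out in turn, and genes alike in span and number of TSSs or in promoter GC content. The last pair was chosen after seeing the data. The counting was tested on simulated summits. Python 3.11.15, pandas 2.3.3, NumPy 2.4.6, SciPy 1.17.1 and matplotlib 3.10.9 were used.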

Additional observations from a re-analysis of the deposited data

How the results depend on the processing

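No paired analysis was possible because the 3 libraries form 1 group. Of 168 alternative values for 22 results, 132 moved by no more than the longer arm of the 95% interval and 36 moved further. A reversal could be called only for the 46 differences from genes of like span, and 0 reversed. The IDR shares at the TSS were 0, so a shorter distance or fewer peaks could only return 0 again. Such values are among the 132 and say nothing on how firm the result is. The library means were judged by a limit on the fold change instead, and each is among those that moved further. All 46 alternative differences from genes of like span were below 0. They ran from -19.1 to -10.1 points for an IDR summit at the TSS, from -25.2 to -6.80 for one within the gene or 2 kb, and from -30.1 to -10.9 and from -25.2 to -11.5 in the relaxed list. At the TSS the difference was -11.1 at 200 bp and -10.1 among the IDR peaks above the median signal, and -19.1 among genes of like promoter GC. Within 2 kb it was -6.80 for the gene alone and -25.2 among genes of like GC. In the relaxed list the TSS difference was -18.1 at 200 bp, -10.9 for peaks outside the IDR list and -30.1 among genes of like GC. The IDR share near all receptor genes was 0% within the gene, 4.47% with a flank of 1 kb and 27.4% with 5 kb. At 5 kb it was 18.6% for Or, 28.3% for Gr and 35.0% for Ir, and within the gene 0% for Ir. The relaxed share was 9.50% within 1000 bp of a TSS, 3.35% within the gene, 17.3% with 1 kb, 51.4% with 5 kb and 18.99% among peaks above the median signal. By family it was 5.08%, 0% and 5% within Or, Gr and Ir genes, and 54.2%, 48.3% and 51.7% with 5 kb. It was 15.3% for Or among peaks above the median signal and 11.7% for Gr with 1 kb. The mean number of receptor genes per library fell from 8.33 to 0 at the TSS and from 55.7 to 17.3 within 2 kb when each library kept as many peaks as the IDR list. With a library left out, which keeps the pooled summits matched in both others, the relaxed share fell to between 0.559% and 1.68% at the TSS and to between 18.99% and 20.1% within 2 kb. It was then 15.3% to 20.3% for Or, 18.3% to 20% for Gr and 20% to 21.7% for Ir, and the relaxed TSS difference ran from -19.96 to -18.0 points. The IDR share within 2 kb was 9.50% to 10.1%. Depth is unknown, so a weak summit below the end of a list cannot be told from none.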
